A study of Mus musculus with 4 samples.

Results

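Type I interferon-stimulated genes were examined in mouse natural killer (NK) cells exposed to DKK2. The set was given by symbol and holds 41 genes. All 41 stood in the deposited table of 37305 rows, each on a single row. Of these, 40 had a mean of at least 1 FPKM (fragments scaled to transcript length and library size) over the 4 libraries and were tested. Mx2 was below that level and is described only by its values.

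The DKK2 group comprised 2 libraries of primary NK cells from spleens of C57BL/6 mice at postnatal day 56. The cells had been kept for 24 hours in recombinant murine IL-15 at 50 ng/ml and then received DKK2 at 200 ng/ml for a further 24 hours. The control group comprised 2 libraries of the same kind of cells, given the same IL-15 culture and then mock treatment for 24 hours. The Dickkopf protein DKK2 is a secreted ligand of the Wnt co-receptors of the LRP family. No interferon is named among the treatments. The sources used here do not give whether replicates came from separate animals or how the NK cells were purified. All p-values then rest on the spread among these 4 libraries alone, and that spread may be technical. In every pair of values below, replicate 1 of the group precedes replicate 2.

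Type I interferons signal through the receptor chains Ifnar1 and Ifnar2 and the kinases Jak1 and Tyk2. These activate a transcription factor complex called ISGF3, which includes Stat2 and Irf9 and binds interferon-stimulated response elements in the promoters of target genes. The products sense viral nucleic acids, block viral entry, translation and replication, and feed back on the pathway. In NK cells type I interferon is known to raise cytotoxicity and survival during viral infection.

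The letters of the response element's core stood in more promoters of the set than of all genes. The letters GAAA, any 2 bases and again GAAA were searched on both strands, with overlaps allowed, in windows reaching from 250 bases before to 50 bases after annotated starts (RefSeq, GRCm38.p6, a later build than that of the deposited values). Of the 41 genes, 31 had such a window, and 13 of the 31 (41.9%) held at least 1 match. Across all genes with a promoter window, 1079 of 27025 genes (3.99%) did, and among the tested genes with a window 306 of 7536 (4.06%). Counted by window of equal length, 14 of 38 windows of the set (36.8%) and 1131 of 32851 windows of all genes (3.44%) held a match. A match describes letters, not a bound site. No window was found for Dhx58, Zbp1, Oas2, Mx1, Mx2, Usp18, Parp9, Parp14, Ifi27l2a and Rtp4. The 6 windows below are shown because the results turn on these genes: Ifit1 and Ifit3 differed widely between the controls, Isg15 held the most matches, and Oas1a, Bst2 and Xaf1 separated the groups. Capitals mark each match, and matches that overlap run together.
Ifit1, chr19:34640639-34640938, plus strand: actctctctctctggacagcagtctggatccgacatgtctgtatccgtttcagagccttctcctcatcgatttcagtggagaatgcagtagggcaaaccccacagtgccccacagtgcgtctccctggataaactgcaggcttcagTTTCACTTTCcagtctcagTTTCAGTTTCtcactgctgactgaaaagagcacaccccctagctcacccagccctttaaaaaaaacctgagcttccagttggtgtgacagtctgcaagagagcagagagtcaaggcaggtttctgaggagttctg
Ifit3, chr19:34583279-34583578, plus strand: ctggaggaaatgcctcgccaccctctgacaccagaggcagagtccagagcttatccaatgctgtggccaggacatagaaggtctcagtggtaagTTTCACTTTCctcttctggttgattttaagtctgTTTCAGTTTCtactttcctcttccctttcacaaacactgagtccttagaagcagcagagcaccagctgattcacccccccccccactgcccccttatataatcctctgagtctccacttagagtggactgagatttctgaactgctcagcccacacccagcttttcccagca
Isg15, chr4:156200769-156201068, minus strand: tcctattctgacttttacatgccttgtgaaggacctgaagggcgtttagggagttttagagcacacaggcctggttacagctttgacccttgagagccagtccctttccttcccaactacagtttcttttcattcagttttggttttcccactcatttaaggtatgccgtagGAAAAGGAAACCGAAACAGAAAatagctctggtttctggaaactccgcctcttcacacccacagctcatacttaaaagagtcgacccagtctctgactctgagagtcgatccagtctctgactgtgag
Oas1a, chr5:120907476-120907775, minus strand: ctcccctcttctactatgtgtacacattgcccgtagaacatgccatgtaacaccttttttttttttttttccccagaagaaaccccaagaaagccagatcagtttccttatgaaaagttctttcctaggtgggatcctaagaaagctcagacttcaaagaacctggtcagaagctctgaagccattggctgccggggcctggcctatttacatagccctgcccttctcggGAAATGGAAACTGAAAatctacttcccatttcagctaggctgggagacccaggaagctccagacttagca
Bst2, chr8:71537423-71537722, minus strand: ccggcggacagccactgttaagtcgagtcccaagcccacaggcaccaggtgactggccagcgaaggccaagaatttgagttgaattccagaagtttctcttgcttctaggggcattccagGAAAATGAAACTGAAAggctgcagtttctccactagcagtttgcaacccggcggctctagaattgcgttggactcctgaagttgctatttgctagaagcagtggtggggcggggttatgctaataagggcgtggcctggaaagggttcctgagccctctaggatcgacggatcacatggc
Xaf1, chr11:72301379-72301678, plus strand: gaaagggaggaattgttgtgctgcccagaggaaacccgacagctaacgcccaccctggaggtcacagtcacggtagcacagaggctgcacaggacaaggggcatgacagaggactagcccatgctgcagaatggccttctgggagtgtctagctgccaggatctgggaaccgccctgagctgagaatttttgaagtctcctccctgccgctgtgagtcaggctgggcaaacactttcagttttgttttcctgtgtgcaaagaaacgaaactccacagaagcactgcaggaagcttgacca
In Ifit1 the matches began 104 and 85 bases before the start, and in Ifit3 they began 156 and 122 bases before it, in both genes read on the opposite strand. The 3 matches of Isg15 began 78, 72 and 66 bases before the start and overlap each other. Those of Oas1a began 20 and 14 bases before the start, and those of Bst2 130 and 124 bases before it. The Xaf1 window has no match to these letters. The 13 tested genes with a match had a median log2 fold change of 0.17 (DKK2 minus control) and the 18 without one 0.29. Of the genes with windows, 2 with a match (Oas1a and Bst2) and 4 without had both DKK2 libraries above both controls, as did 11.8% of all genes tested.

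As a group the interferon-stimulated genes were higher in the DKK2 libraries in the mean, but no single gene passed the test. Of the 40 tested, 33 had a positive log2 fold change and 7 a negative one, with a median of 0.30, whereas 43.6% of all 12275 genes tested were positive and their median was -0.05. By limma with Benjamini-Hochberg adjustment over all genes tested, 0 of the 40 passed an adjusted p of 0.05 (background 0.0326%, of which 0.00815% higher, 1 gene, and 0.0244% lower, 3 genes), and every adjusted p among the 40 was 1. Quantile normalization and median-of-ratios scaling each gave 2 higher and 3 lower over all genes, and again 0 of the 40. At an unadjusted p under 0.05, 2 of the 40 were higher (background 1.08%) and 0 lower (background 0.766%, and 1.84% in either direction). In 12 of the 40 the DKK2 libraries both exceeded both controls (background 11.8%), and in 0 they were both below (background 14.8%). The set was chosen with earlier results of these data known, so its counts beside the background are a description and not a test. With 2 libraries in each group, the smallest two-sided p of an exact permutation test is 0.333.

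The groups were less uniform than these counts. DKK2 replicate 2 held the highest level of 34 of the 40 genes (25.7% of all genes tested) and the lowest of 0. Control replicate 1 held the lowest level of 22 of the 40 (2206 of the 12275 genes tested) and the highest of 0. DKK2 replicate 1 was lowest in 13 (37.1% of all genes) and highest in 4, and control replicate 2 was lowest in 5 and highest in 2. Replicates of a group differed by more, at the median, than the group means did. DKK2 replicate 2 exceeded DKK2 replicate 1 in 36 of 40 genes, by a median of 0.62 on the log2(FPKM + 1) scale, and control replicate 2 exceeded control replicate 1 in 31 of 40, by a median of 0.46. Against control replicate 1, the medians were 0.23 for DKK2 replicate 1 and 0.83 for DKK2 replicate 2. Against control replicate 2, they were -0.25 for DKK2 replicate 1 and 0.41 for DKK2 replicate 2. For all genes tested the same 6 medians lay between -0.10 and 0.07.

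**Figure D1:**
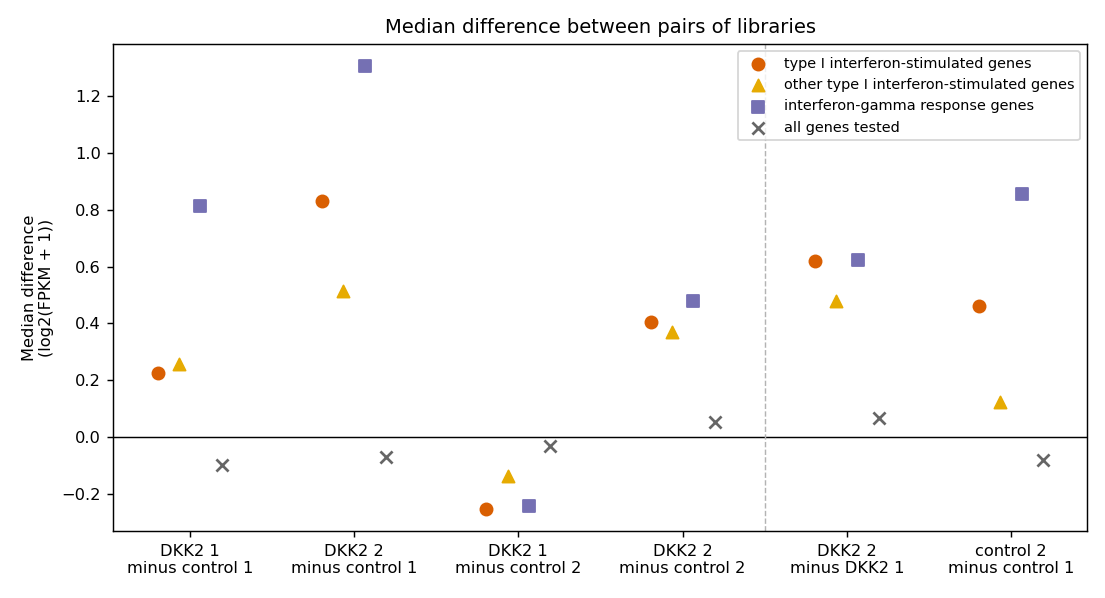
Median difference between pairs of libraries on the log2(FPKM + 1) scale (y axis), for the 40 interferon-stimulated genes, for 2 further interferon-response lists and for all 12275 genes tested. The 4 pairs on the left set a DKK2 library against a control and the 2 pairs on the right set replicates of one group against each other. The medians of the 40 genes run from -0.25 to 0.83, and those between replicates, 0.62 and 0.46, lie inside that range.

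Leaving out 1 library moved the result. Without control replicate 1, 24 of the 40 were positive with a median of 0.07 (50.6% of all genes positive). Without DKK2 replicate 2, 21 of 40 were positive with a median of 0.02 (44.2% of all genes). Without DKK2 replicate 1, 38 of 40 were positive with a median of 0.56, and without control replicate 2, 34 of 40 with a median of 0.54.

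Transcripts of other cell types moved with the libraries. In bulk RNA, fewer cells of a type and less RNA per cell cannot be told apart. The 16 NK cell markers, among them the receptor Ncr1 and the granzymes, were present in all 4 libraries and summed to 38830 and 26180 FPKM in the DKK2 libraries, against 30220 and 30080 FPKM in the controls. Monocyte and macrophage markers summed to 1110 and 916 FPKM in the DKK2 libraries, against 66.6 and 542 FPKM in the controls. All 15 of these were lowest in control replicate 1, where C1qa and C1qc were listed at 0. Neutrophil and basophil markers summed to 3656 and 244 FPKM in the DKK2 libraries, against 5.21 and 158 FPKM in the controls, with all 14 lowest in control replicate 1 and Camp, Ltf, Elane, Retnlg, Cxcr2 and Fcer1a listed at 0 there. For dendritic cell markers the sums were 422 and 430 FPKM in the DKK2 libraries, against 44.1 and 202.5 FPKM in the controls, with 8 of 11 lowest in control replicate 1 and Clec9a and Cd209a listed at 0 there. Both were also listed at 0 in DKK2 replicate 2, and Cd209a in control replicate 2. Outside control replicate 1, H2-Ab1 and Cd74 made up most of the dendritic cell sums, for example 184 and 192 FPKM in DKK2 replicate 1. Itgax went the other way, at 26.3 and 21.6 FPKM in the DKK2 libraries, against 34.0 and 10.2 FPKM in the controls. Flt3, Xcr1, Clec9a, Siglech, Ccr9 and Cd209a were under 1 FPKM in every library. T cell markers summed to 284 and 249.8 FPKM in the DKK2 libraries, against 91.2 and 192 FPKM in the controls, with 9 of 10 lowest in control replicate 1 and Cd8a and Cd8b1 listed at 0 there. The B cell and plasma cell markers reached 14.3 and 46.6 FPKM in the DKK2 libraries, against 0.792 and 31.2 FPKM in the controls, with 10 of 10 lowest in control replicate 1 and none at 0. Erythroid and platelet markers reached 9.84 and 24.15 FPKM in the DKK2 libraries, against 0.393 and 17.3 FPKM in the controls. In control replicate 1, Hba-a1, Hba-a2, Hbb-b2, Pf4 and Ppbp were listed at 0, as were Hba-a1 and Hba-a2 in DKK2 replicate 1. The interferon-stimulated genes themselves summed to 2264 and 4297 FPKM in the DKK2 libraries, against 2155 and 3052 FPKM in the controls. The control with the lowest marker sums thus also had the lowest sum of the set. The library with the highest sum of the set, DKK2 replicate 2, exceeded DKK2 replicate 1 in 3 of 11 tested neutrophil and basophil markers, 7 of 13 tested monocyte and macrophage markers and 5 of 6 tested B cell and plasma cell markers. It also did so in 6 of 8 tested T cell, 3 of 5 dendritic cell, 3 of 4 erythroid and platelet and 6 of 16 NK cell markers. Among all genes tested the share was 53.8%. An estimate from the most frequent ratio between low FPKM values, shared by 210 to 270 of 2607 to 2663 rows, put the other libraries at 0.351 to 0.401 of the depth of control replicate 1. The part of these cells in the interferon-stimulated transcripts was not tested.

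**Figure D2:**
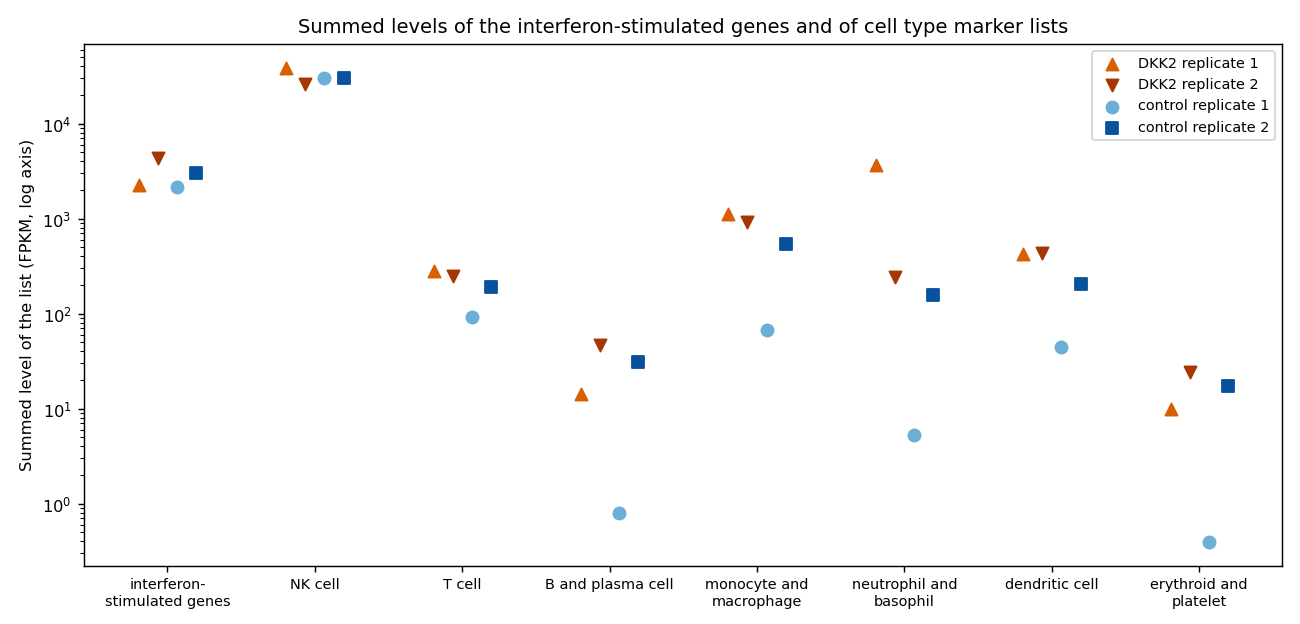
Summed FPKM (log axis) of the 41 interferon-stimulated genes and of 7 lists of cell type markers in each library. Control replicate 1 is below the other libraries for every list of other cells, at 0.792 FPKM for B cell and plasma cell markers and 5.21 FPKM for neutrophil and basophil markers, while the NK cell markers sum to 26180 FPKM or more in all 4.

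Ifi27l2a, Xaf1, Rtp4 and Sp100 showed the clearest separation between the groups. Ifi27l2a, a small interferon-induced membrane protein, was at 161 and 181.5 FPKM in the DKK2 libraries, against 82 and 79.5 FPKM in the controls. The lower DKK2 library was 1.97 times the higher control, and replicates of each group were close to each other (log2 fold change 1.07 ± 0.24 SE, 95% interval 0.44 to 1.71, limma adjusted p = 1). Xaf1, which antagonises the apoptosis inhibitor XIAP, was at 98.4 and 108 FPKM in the DKK2 libraries, against 63.1 and 65.75 FPKM in the controls (0.67 ± 0.24, 95% interval 0.05 to 1.29, limma adjusted p = 1). Its lower DKK2 library was 1.5 times the higher control. These were the 2 genes of the set with an unadjusted p under 0.05. Fits that left out a library gave values between 0.99 and 1.16 for Ifi27l2a and between 0.60 and 0.73 for Xaf1. As the groups of both genes do not overlap, leaving out a library could not reverse the sign.

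Rtp4, an interferon-induced receptor transporter protein, was at 33.3 and 34.5 FPKM in DKK2-treated and 17.6 and 24.7 FPKM in control cells (log2 fold change 0.68 ± 0.27 SE). Both DKK2 libraries were nearly equal, and the controls lay below them and apart. Sp100, a constituent of PML nuclear bodies and among the most abundant genes of the set, was at 416 and 373 FPKM in DKK2-treated and 239.5 and 269.6 FPKM in control cells (0.63 ± 0.27). It was one of the 4 genes of the set that were highest in DKK2 replicate 1. Lgals3bp, Trim30a and Ifi44, grouped with Ifi27l2a, Xaf1 and Rtp4 as effectors of other kinds, did not separate the groups. Lgals3bp, a secreted galectin-binding glycoprotein, was at 274 and 493 FPKM in DKK2-treated and 321 and 269 FPKM in control cells, with DKK2 replicate 1 between the controls. Trim30a, a ubiquitin ligase that restrains Toll-like receptor signalling, was at 98.7 and 111 FPKM in DKK2-treated and 81.7 and 119 FPKM in control cells, highest in a control. Ifi44, an interferon-induced cytoplasmic protein, was at 14 and 34.6 FPKM in DKK2-treated and 20.3 and 25.9 FPKM in control cells, with the 2 DKK2 libraries on either side of both controls.

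**Figure D3:**
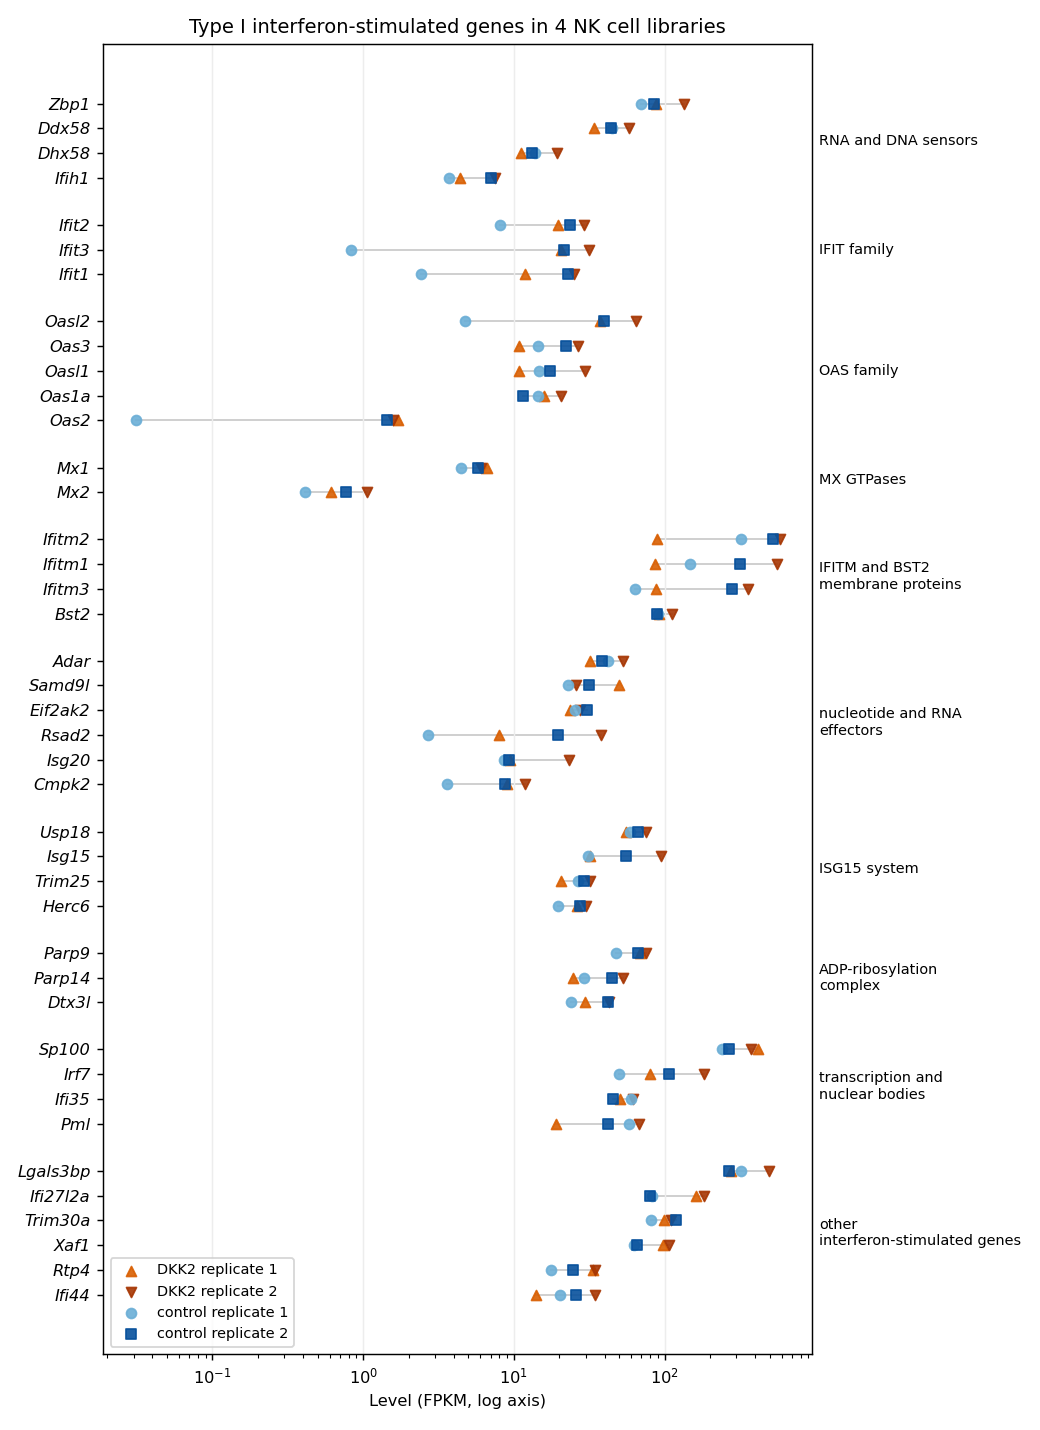
Levels (FPKM, log axis) of the 41 interferon-stimulated genes in each library, grouped by role, with a grey line from the lowest to the highest library. Both DKK2 libraries stand apart above both controls for Ifi27l2a and Xaf1, whereas Ifit3, Oas2 and Oasl2 have control replicate 1 far to the left of the other 3 libraries.

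Sensors of foreign nucleic acids were present in every library, at levels that ran from a few FPKM for Ifih1 to the highest for Zbp1. Zbp1, a sensor of Z-form nucleic acids that can trigger necroptosis, was the highest of them, at 88.2 and 136 FPKM in the DKK2 libraries, against 69.6 and 84.9 FPKM in the controls (log2 fold change 0.50 ± 0.32 SE). The groups did not overlap, but DKK2 replicate 1 was only 1.04 times control replicate 2. Ddx58, which encodes the RNA sensor RIG-I, was at 34.1 and 58.3 FPKM in DKK2-treated and 45 and 44.2 FPKM in control cells. Dhx58 (LGP2), a regulator of RIG-I-like receptors, was at 11.1 and 19.2 FPKM in DKK2-treated and 13.85 and 13.2 FPKM in control cells. In both genes DKK2 replicate 1 was the lowest library and DKK2 replicate 2 the highest, with the controls close together between them. Ifih1 (MDA5), a sensor of long double-stranded RNA, was at 4.365 and 7.485 FPKM in DKK2-treated and 3.73 and 7.04 FPKM in control cells, and its replicates differed 1.71-fold within the DKK2 group and 1.89-fold within the controls.

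The IFIT genes, whose proteins bind viral RNA and block its translation, included the gene with the largest mean difference of the set, and this rested on 1 control. Ifit3 was at 20.5 and 31.3 FPKM in the DKK2 libraries, against 0.831 and 21.4 FPKM in the controls (2.04 ± 1.19, 95% interval -1.04 to 5.12). Control replicate 2 was 25.8 times control replicate 1 and stood between the 2 DKK2 libraries. Ifit1 was at 11.9 and 25.1 FPKM in the DKK2 libraries, against 2.41 and 22.75 FPKM in the controls (1.03 ± 0.98), and Ifit2 at 19.7 and 29.2 FPKM in the DKK2 libraries, against 8.03 and 23.6 FPKM in the controls (0.75 ± 0.54). All 3 genes ranked the libraries alike, with DKK2 replicate 2 highest, then control replicate 2, DKK2 replicate 1 and, lowest, control replicate 1. Without control replicate 1 the log2 fold changes were 0.23 for Ifit3, -0.37 for Ifit1 and 0.03 for Ifit2. The summed markers of every list of other cell types were also lowest in control replicate 1. Those of monocytes and macrophages summed to 66.6 FPKM there and were highest in DKK2 replicate 1, at 1110 FPKM. A link between these markers and the IFIT genes was not tested.

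The OAS family, which makes oligoadenylates that activate the ribonuclease RNase L, held genes with the same low value in control replicate 1 and genes without it. Oasl2, an OAS-like protein, was the highest of them, at 37.3 and 64.3 FPKM in the DKK2 libraries, against 4.71 and 39.5 FPKM in the controls (1.72 ± 0.96), and control replicate 1 again stood alone, 8.4-fold below control replicate 2. Oas2 was the lowest of the tested members, at 1.71 and 1.575 FPKM in the DKK2 libraries, against 0.0309 and 1.45 FPKM in the controls (0.73 ± 0.55). Its groups did not overlap, yet control replicate 2 was close to the DKK2 libraries and control replicate 1 was 46.8-fold below control replicate 2. The mean of Oas2 was 1.64 FPKM over the DKK2 libraries and 0.738 FPKM over the controls. It thus passed the filter of 1 FPKM only through the DKK2 group, and its place in the counts above is not independent of that. Oas1a was at 15.8 and 20.5 FPKM in the DKK2 libraries, against 14.4 and 11.4 FPKM in the controls (0.46 ± 0.28), also without overlap and with control replicate 1 above control replicate 2. In Oas3 the values were 10.85 and 26.65 FPKM in DKK2-treated and 14.4 and 22.3 FPKM in control cells, and in Oasl1, which limits Irf7 translation in mice, 10.9 and 29.7 FPKM in DKK2-treated and 14.8 and 17.5 FPKM in control cells. Without control replicate 1 the log2 fold changes were 0.30 for Oasl2 and 0.11 for Oas2. In Oas3 and Oasl1 the DKK2 libraries held both the lowest and the highest level.

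Among the MX genes, which encode dynamin-like GTPases that block viruses, Mx1 was at 6.65 and 6.06 FPKM in the DKK2 libraries, against 4.49 and 5.78 FPKM in the controls (0.27 ± 0.28), with a gap of 1.05-fold between the lower DKK2 library and the higher control. C57BL/6 mice carry a defective Mx1 gene that yields no functional protein, and RefSeq lists both Mx1 and Mx2 as transcribed pseudogenes. Mx2, below the filter, was at 0.6165 and 1.06 FPKM in DKK2-treated and 0.41 and 0.77 FPKM in control cells, with overlapping groups.

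The genes of membrane proteins that restrict viral entry and release included Ifitm2, the most abundant gene of the set in the mean, and the widest gap between the DKK2 replicates. Ifitm2 was at 89 and 582 FPKM in the DKK2 libraries, against 322 and 528 FPKM in the controls (-0.85 ± 0.93), so that DKK2 replicate 2 was 6.54 times DKK2 replicate 1. Ifitm1 was at 86.9 and 561 FPKM in the DKK2 libraries, against 148 and 318 FPKM in the controls (0.03 ± 0.96), and Ifitm3 at 88.1 and 356 FPKM in the DKK2 libraries, against 63.3 and 282 FPKM in the controls (0.40 ± 0.97). DKK2 replicate 1 was at a similar 86.9 to 89.0 FPKM in all 3 genes. The IFITM genes are close relatives, as are the IFIT and the OAS genes, so fragments could be shared within each family and the separate values are uncertain. Bst2 (tetherin), which holds budding virions at the cell surface, was at 91.6 and 111 FPKM in the DKK2 libraries, against 90.1 and 89.6 FPKM in the controls (0.17 ± 0.25). Its 4 values were close, and the groups, though without overlap, differed by 1.02-fold at the nearest pair.

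Of the effectors acting on nucleotides and RNA, Cmpk2, a mitochondrial nucleotide kinase, was at 9 and 11.9 FPKM in the DKK2 libraries, against 3.58 and 8.7 FPKM in the controls (0.77 ± 0.44), and Isg20, an RNA exonuclease, at 9.4 and 23.2 FPKM in the DKK2 libraries, against 8.62 and 9.33 FPKM in the controls (0.67 ± 0.46). Neither pair of groups overlapped, but the nearest values differed by 1.03-fold and 1.01-fold. Rsad2 (viperin), which makes a chain-terminating nucleotide and lies beside Cmpk2 in the genome, was at 7.91 and 37.9 FPKM in the DKK2 libraries, against 2.68 and 19.6 FPKM in the controls (1.10 ± 1.07). Its replicates differed 4.79-fold in the DKK2 group and 7.31-fold in the controls, and without control replicate 1 its value was -0.15. Adar, an RNA-editing enzyme and the most abundant gene of this class, was at 31.8 and 53.1 FPKM in DKK2-treated and 42.3 and 38.4 FPKM in control cells (0.03 ± 0.33). Eif2ak2 (PKR), a kinase that halts translation on sensing double-stranded RNA, was at 23.6 and 27.55 FPKM in DKK2-treated and 25.5 and 30.6 FPKM in control cells, with overlapping groups. Samd9l, a suppressor of cell growth, was at 50.15 and 25.8 FPKM in DKK2-treated and 22.8 and 31.7 FPKM in control cells, highest in DKK2 replicate 1.

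The ISG15 system attaches and removes a ubiquitin-like protein. Isg15 itself was at 31.9 and 95.2 FPKM in the DKK2 libraries, against 31.2 and 55.4 FPKM in the controls (0.40 ± 0.60), with DKK2 replicate 1 level with control replicate 1. Usp18, which removes Isg15 and dampens the interferon receptor, was the highest of the class, at 55.6 and 75 FPKM in DKK2-treated and 58.8 and 67 FPKM in control cells (0.04 ± 0.28), with overlapping groups. The ligase gene Herc6, which conjugates Isg15 in mice, was at 26.1 and 29.9 FPKM in DKK2-treated and 19.55 and 27.5 FPKM in control cells, and the RIG-I-activating ligase gene Trim25 at 20.5 and 32 FPKM in DKK2-treated and 26.5 and 29 FPKM in control cells. In none of the 4 did the groups separate.

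Parp9, Dtx3l and Parp14 take part in ADP-ribosylation during interferon responses, the first 2 as partners in a complex. Parp9 was at 68.7 and 75.6 FPKM in the DKK2 libraries, against 47.9 and 66.9 FPKM in the controls (0.34 ± 0.28), without overlap but with a nearest gap of 1.03-fold. Dtx3l was at 29.5 and 43.1 FPKM in DKK2-treated and 23.8 and 42.2 FPKM in control cells, and control replicate 2 nearly equalled DKK2 replicate 2. Parp14 was at 24.6 and 52.8 FPKM in DKK2-treated and 29.2 and 44.9 FPKM in control cells, with the DKK2 libraries below and above both controls.

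Irf7, the transcription factor that amplifies interferon production, was at 79.7 and 181 FPKM in the DKK2 libraries, against 50.1 and 107.5 FPKM in the controls (0.70 ± 0.56). Each group spanned more than 2-fold. Pml, the organiser of PML bodies, was at 19.1 and 67.9 FPKM in DKK2-treated and 57.8 and 41.9 FPKM in control cells (-0.43 ± 0.63), 3.56-fold apart in the DKK2 group. Ifi35, an interferon-induced leucine zipper protein, was at 50.8 and 62.1 FPKM in DKK2-treated and 60 and 45.55 FPKM in control cells, with overlapping groups.

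**Figure D4:**
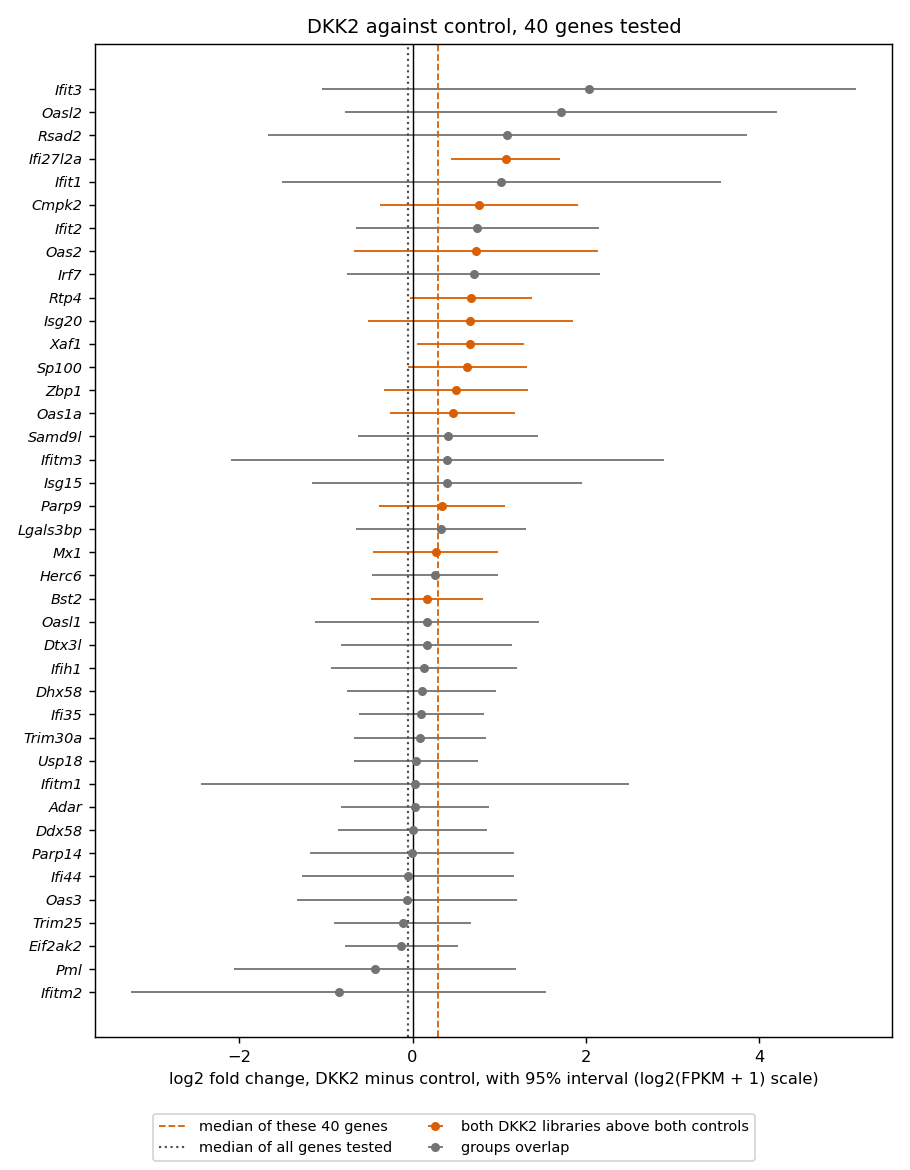
Log2 fold change of each of the 40 tested genes (x axis, DKK2 minus control on the log2(FPKM + 1) scale) with the 95% interval of the limma fit. Orange points mark the 12 genes with both DKK2 libraries above both controls, and vertical lines mark the median of the 40 genes, 0.30, and of all genes tested, -0.05. Only Ifi27l2a and Xaf1 have intervals above 0, before adjustment for the number of genes.

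The receptor and the ISGF3 complex were expressed in every library. Ifnar2 was at 69.9 and 77.3 FPKM in the DKK2 libraries, against 56.5 and 45.6 FPKM in the controls (0.53 ± 0.26), and both DKK2 libraries exceeded both controls. Irf9 did likewise by a smaller margin, at 40.3 and 48.6 FPKM in DKK2-treated and 35.6 and 38.55 FPKM in control cells (0.25 ± 0.25). The remaining components overlapped between the groups. Ifnar1 was at 32.5 and 36.6 FPKM in DKK2-treated and 38.7 and 27.2 FPKM in control cells, Jak1 at 197 and 291 FPKM in DKK2-treated and 267 and 227 FPKM in control cells and Tyk2 at 9.84 and 17.75 FPKM in DKK2-treated and 15.5 and 11.3 FPKM in control cells. Stat2, a subunit of ISGF3, was at 10.85 and 20.5 FPKM in DKK2-treated and 8 and 13.9 FPKM in control cells. Of these 6 genes, 5 had a positive log2 fold change (background 43.6%) and 0 passed limma after adjustment (background 0.0326%) or at an unadjusted p under 0.05. As in the interferon-stimulated genes, DKK2 replicate 2 was above DKK2 replicate 1 in each of the 6.

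Transcripts of type I interferons were nearly absent. Of the 12 interferon genes in the table, the type I genes Ifna1, Ifna2, Ifna4, Ifna5, Ifna11, Ifna12, Ifna13, Ifne and Ifnz were listed at 0 in all 4 libraries. Ifnb1 was listed at 0 in DKK2 replicate 1 and control replicate 1 and at 0.29 FPKM in DKK2 replicate 2 and 0.0827 FPKM in control replicate 2, which were also the libraries with the higher sums of the set in their groups. Ifnk reached 0.0181 FPKM in DKK2 replicate 1 and was listed at 0 elsewhere. A listed 0 can be a failed estimate. Ifng, the type II interferon made by NK cells, was at 64.8 and 87.8 FPKM in the DKK2 libraries, against 255 and 93.3 FPKM in the controls (-1.02 ± 0.54), lower in both DKK2 libraries and highest in the control with the least interferon-stimulated transcript. Most of this difference came from control replicate 1: against control replicate 2 alone, the log2 differences were -0.52 for DKK2 replicate 1 and -0.09 for DKK2 replicate 2.

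Of 10 tested genes of the sensing pathways that lead to interferon, 6 were positive (median 0.12, background 43.6% positive), and 2 had both DKK2 libraries above both controls (background 11.8%). Tmem173 (STING), the adaptor of cytosolic DNA sensing, was at 75.9 and 98.15 FPKM in DKK2-treated and 87.9 and 72 FPKM in control cells, and Irf5 at 41.8 and 49.6 FPKM in DKK2-treated and 29.6 and 29.7 FPKM in control cells (0.60 ± 0.24). Of 7 brakes on interferon signalling, 5 were negative (median -0.05, background 56.4% negative), and for 2 of them each DKK2 library was lower than either control (background 14.8%). The phosphatase genes Ptpn6 and Ptpn2 were the highest of these, Ptpn6 at 155 and 229 FPKM in DKK2-treated and 279.6 and 139 FPKM in control cells and Ptpn2 at 106 and 49.7 FPKM in DKK2-treated and 55.2 and 59 FPKM in control cells. By limma, 0 of these passed after adjustment and 0 at an unadjusted p under 0.05.

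A further list of 30 tested type I interferon-stimulated genes was also mostly higher in the DKK2 mean. Of these, 27 were positive (median 0.35, background 43.6% positive), 8 had both DKK2 libraries above both controls (background 11.8%), 16 were lowest in control replicate 1 and 23 were highest in DKK2 replicate 2. Shisa5 and Ly6a (Sca-1) were the most abundant, Shisa5 at 644 and 1250 FPKM in DKK2-treated and 980.2 and 699 FPKM in control cells and Ly6a at 519.6 and 1200 FPKM in DKK2-treated and 247 and 999.8 FPKM in control cells. Of 23 tested interferon-gamma response genes, 21 were positive (median 0.60), 5 had both DKK2 libraries above both controls and 17 were lowest in control replicate 1. The immunoproteasome subunit genes Psmb8 and Psmb9 were the most abundant, Psmb8 at 286 and 398 FPKM in DKK2-treated and 364 and 302 FPKM in control cells and Psmb9 at 336 and 255 FPKM in DKK2-treated and 184 and 181.5 FPKM in control cells. Control replicate 2 exceeded control replicate 1 by medians of 0.12 in the further list and 0.86 in the interferon-gamma list, against 0.46 in the set. By limma, 0 of these genes passed after adjustment and 0 at an unadjusted p under 0.05. Like the set, both lists were chosen with earlier results of these data known, so they are no independent check on it. Whether these lists differ from the set was not tested.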

How the data were processed

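Strand-specific libraries of total RNA were made from RNA purified on columns, per the labels' protocols. The authors deposited a single table of FPKM values, 1 column per library, per the file headers. Tools listed in the submitters' processing notes, without their roles, are edgeR, Cuffdiff 2.1.0, TopHat2 2.1.0 and CASAVA, with build mm9. The sources used here do not give the annotation, the strand setting or the treatment of fragments with several matches. Each of the 4 value columns bears its sample's name.

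Values were taken as log2(FPKM + 1), and 12275 rows with a mean of at least 1 FPKM were fitted with limma 3.58.1 in R 4.3.3 (eBayes with a trend, two-sided, Benjamini-Hochberg over all rows fitted, threshold 0.05), after a check on simulated data. Fold changes on this scale understate the change of low genes. FPKM carry no read totals. From the most frequent ratio between low values (under 0.3 FPKM, transcripts of 400 to 5000 bases, ratios within 0.5%, a step that a minority of rows shared), depths relative to control replicate 1 came to 0.399 and 0.401 for the DKK2 libraries and 0.351 for the second control. The row mmu-mir-703 took 25.73% and 8.44% of all FPKM in the DKK2 libraries and 11.8% and 17.09% in the controls.

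The members and gene lists were chosen with earlier results of these data known. Members with groups that do not overlap, the most abundant ones and the highest of each role were to be named. The rest of the set is also given, chosen after the values were seen. The receptor and ISGF3 list was to be named in full (some genes of the lists are not reported here), and the 2 most abundant genes of each further list. Ifnk, the interferons listed at 0, the markers listed at 0 and the further dendritic cell markers were named after their values were seen. Alternatives covered the pseudocount (0.1), no filter on low values, quantile normalization, median-of-ratios scaling, no trend, the replicate number as a block, and leaving out each library.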

Additional observations from a re-analysis of the deposited data

How the results depend on the processing

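No interferon-stimulated gene passed an adjusted p of 0.05 in limma under any alternative run. The smallest adjusted p among them was 0.286, without control replicate 2 (1 under the scaling, pseudocount, trend and block alternatives, 0.614 with no filter), and 1 to 5 were higher and 0 to 2 lower at an unadjusted p under 0.05. Over all 12275 genes tested, 1 higher and 3 lower passed the adjusted p in the main analysis. With no filter on low values this became 0 higher and 0 lower (570 and 379 at an unadjusted p under 0.05). It became 2 higher under quantile normalization, under median-of-ratios scaling and with the replicate number as a block, and the block gave 6 lower. Leaving out any 1 library gave 0 higher and 0 lower (61 to 413 and 89 to 457 at an unadjusted p under 0.05). The replicate numbers share no stated animal or day, and the deviations of same-numbered libraries correlated at 0.0117 across all genes tested, so no pairing was assumed. Within the set, however, replicate 2 exceeded replicate 1 in 36 of 40 genes in the DKK2 group and 31 of 40 in the controls. The shares of all genes tested were 53.8% and 41.4%. The replicate block changed the call of no interferon-stimulated gene.

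Leaving out 1 library gave 21 to 38 positive genes of 40, a median of 0.02 to 0.56, 13 to 37 genes with DKK2 above control and 0 to 13 below. The last 2 counts set 2 libraries against 1, which overlap less by construction, and the lone library is assumed to vary like the others. Without control replicate 1, 14 genes were above (25.5% of all genes tested), and without control replicate 2, 25 were (22.7%). Without DKK2 replicate 1, 37 were above (32.7%), and without DKK2 replicate 2, 13 were (32.6%). In the same order, 2 (23.8%), 0 (37.5%), 0 (34.2%) and 13 (41.8%) were below. In these fits 17 genes kept their sign and 23 did not, with log2 fold changes of Adar -0.33 to 0.39, Ddx58 -0.38 to 0.38, Dhx58 -0.26 to 0.48, Dtx3l -0.24 to 0.56, Eif2ak2 -0.25 to 0.0004, Ifi35 -0.093 to 0.30, Ifi44 -0.67 to 0.57, Ifih1 -0.25 to 0.51, Ifit1 -0.37 to 2.43, Ifitm1 -1.31 to 1.37, Ifitm2 -2.20 to 0.50, Ifitm3 -0.67 to 1.47, Isg15 -0.37 to 1.18, Lgals3bp -0.0969 to 0.75, Oas3 -0.68 to 0.54, Oasl1 -0.52 to 0.85, Parp14 -0.54 to 0.53, Pml -1.32 to 0.46, Rsad2 -0.15 to 2.34, Samd9l -0.0559 to 0.87, Trim25 -0.42 to 0.20, Trim30a -0.18 to 0.35 and Usp18 -0.17 to 0.25. The 17 genes include the 12 with both DKK2 libraries above both controls, whose sign cannot reverse when a library is left out. Under quantile normalization 8 of the 40 genes (11.9% of all genes), against 12 (11.8%), had both DKK2 libraries above both controls. Near 0, Ddx58 reversed to -0.0001 with a pseudocount of 0.1. Quantile normalization reversed Oas3 to 0.0193, Parp14 to 0.0892 and Ifi44 to 0.0277, and median-of-ratios scaling reversed Parp14 to 0.0385. The cause was not tested.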
